A study of Mus musculus with 6 samples.

Results

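Hormones reach bone cells through receptors of several kinds. The parathyroid hormone receptor Pth1r and the oestrogen-responsive receptor Gper1 are G-protein-coupled receptors of the cell surface, Ghr and Insr are surface receptors that act through tyrosine kinases, and Vdr, Esr1, Thra and Nr3c1 are nuclear receptors that bind DNA as transcription factors once their ligand is present. Hsd11b1 is not a receptor but an enzyme of the endoplasmic reticulum that regenerates active glucocorticoid from its inactive keto form, and so sets how much ligand reaches Nr3c1 inside the cell. In the osteoblast lineage these hormones act on matrix formation, mineralization and the signals sent to osteoclasts.

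The 9 genes described here (Pth1r, Vdr, Esr1, Ghr, Thra, Insr, Nr3c1, Hsd11b1 and Gper1) were taken by symbol from the 20071 genes of the deposited count table, and each matched 1 Ensembl ID. The libraries came from mesenchymal stem cells (MSCs) of the bone marrow, stromal cells that can form osteoblasts. The cells came from the femurs of 6-week-old C57BL/6J mice and were kept for 7 days in osteogenic medium. Both genotypes received dexamethasone at 100 nM, a synthetic ligand of Nr3c1, beside β-glycerophosphate at 5 mM and ascorbic acid at 50 μg/mL. The 3 control libraries were Pcif1fl/fl (labelled WT), carrying loxP sites but no Cre, and the 3 others were Prrx1-Cre;Pcif1fl/fl (labelled CKO). Prrx1-Cre is driven by a promoter of limb bud mesenchyme and removes exons 5 to 7 of Pcif1, the methyltransferase that makes m6Am at a first transcribed adenosine next to the mRNA cap. The labels number 3 libraries per genotype, the design text speaks of duplicates, and no source used here says whether the libraries of a genotype came from separate mice or cultures, so p-values measure only the spread between these libraries.

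The libraries held 20258209 to 28227696 counts. WT replicate 3 stood apart, with 3.63% of its counts on mitochondrial genes against 1.40% to 1.57% in the others, and every member is therefore also given without it. The count of Pcif1 over the whole gene did not separate the genotypes (log2 fold change -0.085, SE 0.092, adjusted p = 0.645), 16.9% of its exonic sequence is shared with the antisense gene Zfp335, and a count per gene cannot show whether 3 exons are missing. Xist, made from the silenced X of female cells, stood at 232, 318 and 443 CPM in WT against 0.945, 1.79 and 0.722 CPM in CKO, where CPM are counts relative to library size scaled by the trimmed mean of M-values (TMM). The Y-linked gene Ddx3y was counted in all 6 libraries, at 48.4 to 62.2 CPM in WT and 99.1 to 104 CPM in CKO, so that the sex of the cells and the genotype cannot be told apart for any gene below.

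In the CKO cultures 3 of the 9 genes were lower: Ghr, Pth1r and Vdr. Pth1r and Ghr stood at 43.2% and 42.9% of their WT means and Vdr at 67.2%. Esr1, Thra, Insr, Hsd11b1 and Gper1 lay below WT in every CKO library without passing the adjusted test, and Nr3c1, the glucocorticoid receptor, overlapped between genotypes. No member was higher in CKO by edgeR's quasi-likelihood test at an adjusted p under 0.05, 0 were at an unadjusted p under 0.05, and DESeq2 and limma-voom called 0 higher as well. All 9 passed the expression filter. Over the 13733 genes tested, 620 were called lower in CKO, or 4.51%, and 396 were called higher, or 2.88%. With a log2 fold change of -1 or less required as well, 2 members (Pth1r and Ghr) and 343 of all genes remained, or 2.50%. At an unadjusted p under 0.05, 8 members and 1619 genes were lower, or 11.8%. The 9 genes were chosen with earlier results of these data known, so these member counts are not independent evidence.

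Every CKO library lay below every WT library for 8 of the 9 members, against 15.7% of all genes tested, and above for 0 of 9, against 15.0% of all genes. An exact permutation test of 3 libraries against 3 cannot go below p = 0.1, so that separation of the groups is given as a description. Like the median below, it comes from genes chosen with earlier results of these data known. The median log2 fold change of the 9 genes was -0.57, with a range from -1.56 to 0.05, and the median over all genes tested was 0.0017. Added together, the 9 genes took 384, 395 and 437 CPM in WT replicates 1 to 3 and 281, 295 and 282 CPM in CKO replicates 1 to 3. In bulk RNA, fewer cells of a type and less RNA per cell cannot be told apart. Macrophage markers were also counted in both genotypes, with a sum of 26960 to 29420 CPM in WT and 26540 to 30560 CPM in CKO. Without Lyz2 the sum was 4082 to 4468 and 4130 to 4558 CPM. The levels given here are therefore those of the whole culture, and the part of MSCs in them was not measured.

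**Figure D1:**
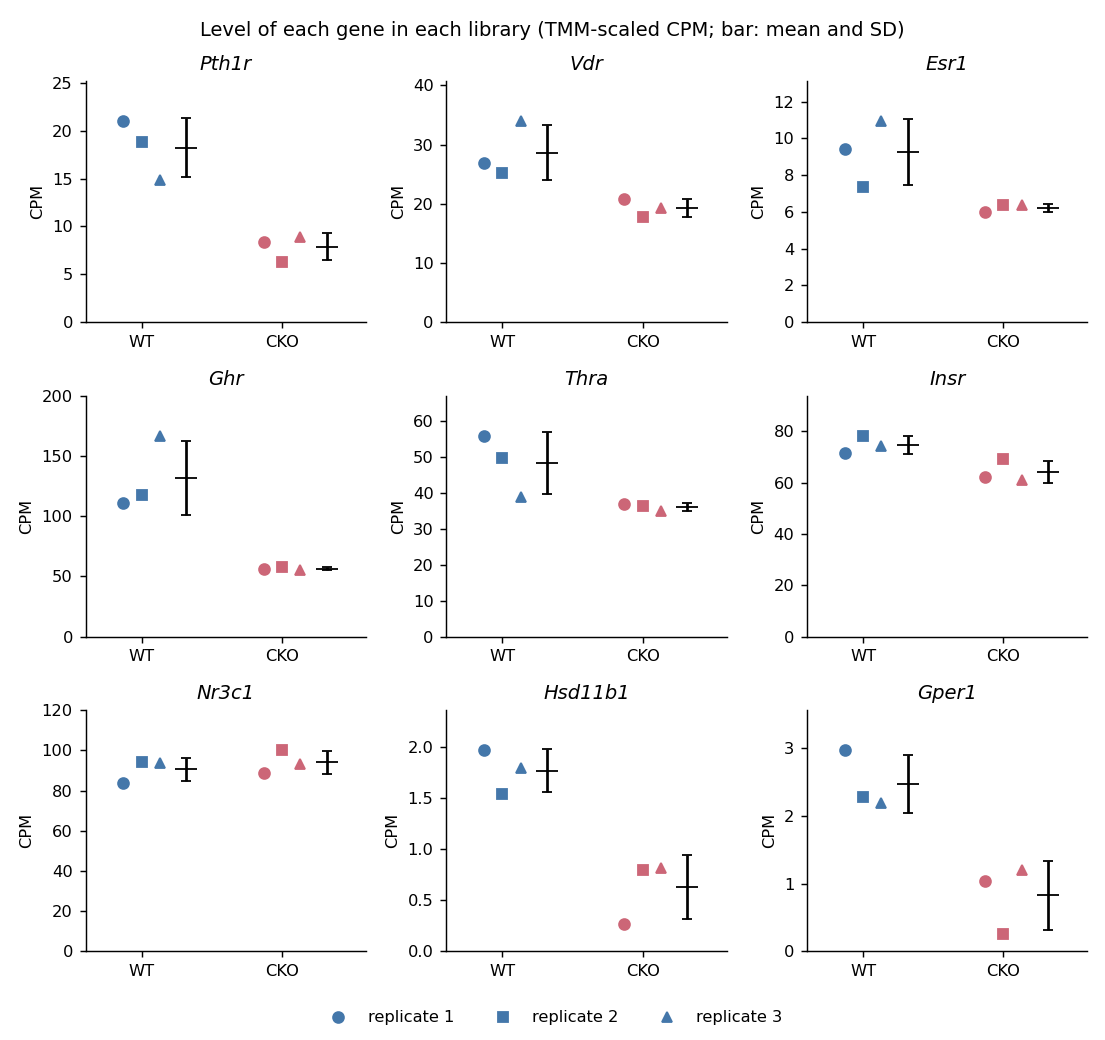
Level of each of the 9 genes (vertical axes, TMM-scaled CPM, starting at 0) in the 3 WT and the 3 CKO libraries, with a symbol for each replicate and the mean ± SD beside the points. The genotypes do not overlap for 8 genes and overlap for Nr3c1, and WT replicate 3 is the highest library for Vdr, Esr1 and Ghr.

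Because PCIF1 acts on a cap-adjacent adenosine, the bases around the transcription start are shown for the 3 genes that were lower. Of the 9 members, 6 had start sites in the RefSeq promoter table (build GRCm38.p6, mm10), with 10 starts in all. Each window runs from 40 bases before the start to 20 bases after it, 5′ to 3′ on the strand of the gene, and the capital marks the first transcribed base.
Pth1r, start 1, chr9:110747125-110747185, minus strand: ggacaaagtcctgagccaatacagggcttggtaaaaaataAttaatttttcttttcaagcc
Pth1r, start 2, chr9:110743666-110743726, minus strand: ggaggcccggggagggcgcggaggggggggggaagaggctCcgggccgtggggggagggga
Pth1r, start 3, chr9:110742590-110742650, minus strand: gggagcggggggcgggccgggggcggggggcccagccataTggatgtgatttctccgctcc
Vdr, chr15:97908276-97908336, minus strand: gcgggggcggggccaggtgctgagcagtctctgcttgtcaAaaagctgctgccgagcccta
Ghr, start 1, chr15:3583332-3583392, minus strand: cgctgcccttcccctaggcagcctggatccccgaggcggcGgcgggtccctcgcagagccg
Ghr, start 2, chr15:3581822-3581882, minus strand: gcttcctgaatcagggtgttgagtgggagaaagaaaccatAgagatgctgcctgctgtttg
The first base was A at 1 of the starts of each of these genes, and C or T at the other starts of Pth1r and G at the other start of Ghr. Over the 10 starts the first base was A in 5 (50%), against 34.4% of all 32851 promoters in the table. The letters AGGTCA or TGACCT, a nuclear receptor half-site on either strand, were in 0 of the 10 member promoters (250 bases before to 50 bases after the start) and in 16.3% of all promoters. TGACG or CGTCA, the core of a cyclic AMP response element, was in 1 of 10, at start 1 of Pth1r, and in 20.8% of all. These are matches of letters, and which starts the cells used was not measured.

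Pth1r, the receptor for parathyroid hormone and its related peptide, signals mainly through Gs and cyclic AMP and is the target of the bone-forming hormone fragments used as drugs. The gene (ENSMUSG00000032492) lies on the minus strand of chromosome 9 from 110722085 to 110747145. Pth1r was at 21.0, 18.8 and 14.9 CPM in WT replicates 1 to 3 and at 8.42, 6.27 and 8.95 CPM in CKO replicates 1 to 3. All CKO libraries were low, and the lowest WT library was 1.66 times the highest CKO library. The mean fell from 18.2 ± 3.11 CPM to 7.88 ± 1.42 CPM (SD, n = 3 libraries, as for all means below), a log2 fold change of -1.21 (SE 0.19, 95% interval -1.63 to -0.78, adjusted p = 0.00610). Leaving out WT replicate 3 gave -1.33. The study picked Pth1r from these same libraries as a lowered gene, so its direction here is not independent evidence. Myl3, on the opposite strand, overlaps 3.25% of its exonic bases and reached at most 0.251 CPM in any library.

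Ghr, the growth hormone receptor, signals through the kinase Jak2 to Stat5 and drives local and hepatic Igf1. It lies on the minus strand of chromosome 15 from 3317760 to 3583492 (ENSMUSG00000055737). Its level was 111, 118 and 167 CPM in the WT libraries and 55.9, 58.0 and 55.8 CPM in the CKO libraries. Here WT replicate 3 was the high library, the CKO libraries lay within 1.04 times of each other, and the groups were separated by 1.91 times between the lowest WT and the highest CKO library. The mean fell from 132 ± 30.5 CPM to 56.6 ± 1.25 CPM (log2 fold change -1.22, SE 0.15, 95% interval -1.57 to -0.87, adjusted p = 0.00231). It was -1.01 without WT replicate 3 and still passed the test.

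Insr, the insulin receptor, is a receptor tyrosine kinase that feeds the phosphoinositide 3-kinase and Akt pathway. It lies on the minus strand of chromosome 8 from 3122061 to 3279617 (ENSMUSG00000005534). Its level was 71.5, 78.2 and 74.3 CPM in WT and 62.3, 69.0 and 61.1 CPM in CKO. The groups did not overlap, but the lowest WT library was only 1.03 times the highest CKO library. With means of 74.7 ± 3.39 and 64.2 ± 4.27 CPM, the log2 fold change of -0.22 (SE 0.09, 95% interval -0.43 to -0.0063) had an adjusted p of 0.222. The fold without WT replicate 3 was the same at -0.22, with an adjusted p of 0.04999.

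Gper1 binds oestrogen at membranes and couples to G proteins. It lies on the plus strand of chromosome 5 from 139423151 to 139427800 (ENSMUSG00000053647) and was thinly covered, with 68, 62 and 61 reads in WT and 23, 5 and 25 in CKO. On the CPM scale this was 2.97, 2.28 and 2.19 against 1.04, 0.249 and 1.20. CKO replicate 2 was the low library, and the groups did not overlap. The means of 2.48 ± 0.428 and 0.829 ± 0.509 CPM gave a log2 fold change of -1.56 (SE 0.44, 95% interval -2.56 to -0.56, adjusted p = 0.0703). It was past the threshold without WT replicate 3 (-1.63, adjusted p = 0.00987), by DESeq2 (-1.57, adjusted p = 0.0148) and by edgeR with no expression filter (-1.56, adjusted p = 0.0313). In the test of all 6 libraries Gper1 thus had the lowest fold of the 9 genes and the widest interval, and its call depended on the setting. Its rank rested on CKO replicate 2: without that library the fold was -1.14, against -1.70 for Hsd11b1 and -1.24 for Ghr.

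Among the nuclear receptors, Vdr, which binds active vitamin D as a heterodimer with retinoid X receptors, passed the test. It lies on the minus strand of chromosome 15 from 97854425 to 97910630 (ENSMUSG00000022479). The WT libraries held 26.8, 25.1 and 34.0 CPM and the CKO libraries 20.8, 17.8 and 19.2 CPM. WT replicate 3 was again the highest, and the lowest WT library was 1.21 times the highest CKO library. From 28.6 ± 4.68 CPM the mean fell to 19.3 ± 1.49 CPM (log2 fold change -0.57, SE 0.14, 95% interval -0.90 to -0.25, adjusted p = 0.0468). The call was narrow. Without WT replicate 3 the difference was -0.43 and the adjusted p 0.00535, but leaving out any other library gave -0.66 to -0.52 and ended the call, and over all 13 alternatives the adjusted p ran from 0.00535 to 0.186.

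Esr1, the oestrogen receptor alpha, lies on the plus strand of chromosome 10 from 4611593 to 5005614 (ENSMUSG00000019768). It was at 9.44, 7.35 and 10.9 CPM in WT and at 5.99, 6.37 and 6.35 CPM in CKO. The spread lay in the WT libraries (coefficient of variation 19.5%, against 3.47% in CKO), and the groups did not overlap. Means of 9.24 ± 1.80 and 6.24 ± 0.216 CPM gave the same log2 fold change as for Vdr, -0.57 (SE 0.17, 95% interval -0.97 to -0.17), with an adjusted p of 0.0962. Without WT replicate 3 it was -0.42, and Esr1 passed the threshold in 0 of the 13 alternatives (adjusted p 0.0601 to 0.300; unadjusted p under 0.05 in the test of all 6 libraries). The other oestrogen receptor gene, Esr2, had 8, 17 and 23 reads in WT and 4, 3 and 2 in CKO and was not tested.

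Thra, the thyroid hormone receptor alpha and the main form in the skeleton, lies on the plus strand of chromosome 11 from 98740638 to 98769006 (ENSMUSG00000058756). Its level was 56.0, 49.9 and 38.9 CPM in WT and 37.1, 36.3 and 34.9 CPM in CKO. WT replicate 3 was the low WT library here and stood only 1.05 times above the highest CKO library. The log2 fold change was -0.42 (SE 0.14, 95% interval -0.74 to -0.10, adjusted p = 0.120), from means of 48.3 ± 8.65 and 36.1 ± 1.08 CPM. When WT replicate 3 was left out it was -0.55 with an adjusted p of 0.000106. Nr1d1, a circadian repressor on the opposite strand, overlaps 5.70% of the exonic bases of Thra and was at 12.1, 11.2 and 20.2 CPM in WT and 9.63, 8.16 and 10.9 CPM in CKO. How the counting used strand is not given in the sources used here, so reads of the shared bases cannot be assigned to either gene.

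Nr3c1, the glucocorticoid receptor (ENSMUSG00000024431), was the member whose genotypes overlapped. It stood at 84.0, 94.3 and 93.5 CPM in WT and at 88.8, 100.0 and 93.5 CPM in CKO. From means of 90.6 ± 5.76 and 94.1 ± 5.67 CPM, the log2 fold change was 0.05 (SE 0.09, adjusted p = 0.778), and its 95% interval from -0.16 to 0.27 bounds the difference. Without WT replicate 3 it was 0.08.

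Hsd11b1, the enzyme that supplies Nr3c1 with ligand, lies on the minus strand of chromosome 1 from 193221634 to 193264075 (ENSMUSG00000016194). It had 45, 42 and 50 reads in WT and 6, 16 and 17 in CKO, or 1.97, 1.54 and 1.79 CPM against 0.270, 0.796 and 0.818 CPM. CKO replicate 1 was the low library, and the lowest WT library was 1.89 times the highest CKO library. The means were 1.77 ± 0.212 and 0.628 ± 0.310 CPM, with a log2 fold change of -1.50 (SE 0.38, 95% interval -2.38 to -0.61, adjusted p = 0.0544). Like Gper1, it passed the threshold without WT replicate 3 (-1.48, adjusted p = 0.0197), by DESeq2 (-1.50, adjusted p = 0.0198) and with no expression filter (-1.50, adjusted p = 0.0331). Per library, the CPM of Nr3c1 was 42.7 to 61.1 times that of Hsd11b1 in WT and 114 to 329 times in CKO. Dexamethasone, the glucocorticoid of the medium, is active without this enzyme.

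**Figure D2:**
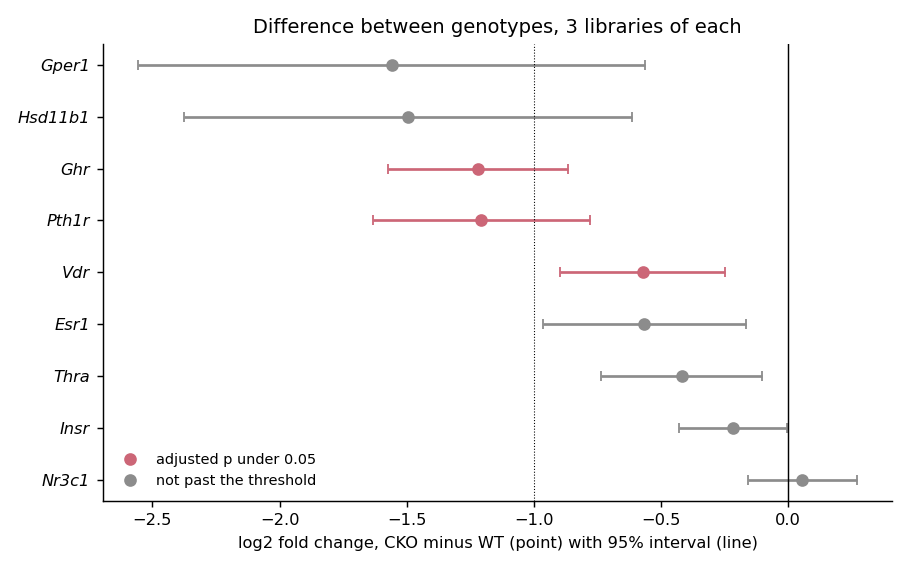
Log2 fold change, CKO minus WT, of each gene (points) with its 95% interval (lines), in order of size. Ghr, Pth1r and Vdr are coloured as past an adjusted p of 0.05, the dotted line marks -1, and Gper1 and Hsd11b1 have the lowest folds and the widest intervals.

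Levels of different genes were compared per kilobase of exonic sequence. This length joins the exons of all annotated transcripts of a gene, and which transcripts the cells made was not measured. The order between genes therefore depends on the annotation as well. In WT, Ghr was the most abundant of the 9 at 14.6 ± 3.36 CPM per kilobase, followed by Nr3c1 at 11.8 ± 0.750 and Thra at 10.5 ± 1.87, and neighbours in this order overlapped. Pth1r (6.23 ± 1.06), Insr (5.43 ± 0.247) and Vdr (5.07 ± 0.829 CPM per kilobase) came next, with overlapping ranges again between neighbours. Gper1 at 0.977, Esr1 at 0.676 and Hsd11b1 at 0.416 CPM per kilobase were the lowest, each apart from the next. In CKO the order began with Nr3c1 at 12.3 CPM per kilobase, then Thra at 7.83, Ghr at 6.25, Insr at 4.67, Vdr at 3.41 and Pth1r at 2.69, with no overlap between neighbours. Ghr thus passed from rank 1 to rank 3 and Pth1r from rank 4 to rank 6. Esr1 (0.457), Gper1 (0.327) and Hsd11b1 (0.148 CPM per kilobase) closed the order, and their neighbouring ranges overlapped.

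**Figure D3:**
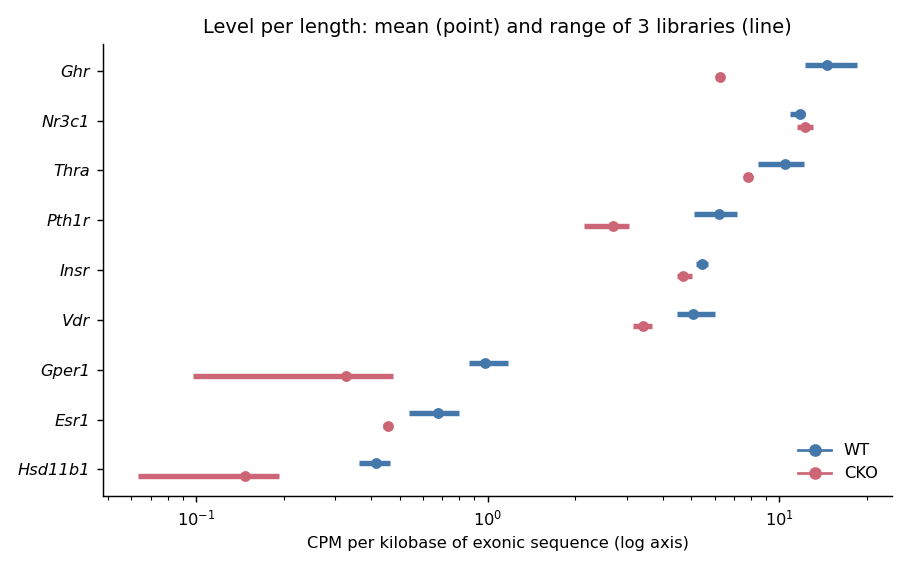
Level of each gene in CPM per kilobase of exonic sequence (horizontal log axis), as the mean (point) and range (line) of 3 libraries, WT above CKO. Ghr leads in WT and Nr3c1 in CKO.

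The genes whose profile over the 6 libraries lay nearest to each member were sought among 9242 genes with a mean of at least 10 CPM, by the root mean square difference of centred log2 CPM. For Pth1r they were Slc5a3 (0.138), Olfml2a (0.167) and Angptl4 (0.172). Those of Ghr were Mme (0.0821), Adamts9 (0.0892) and Klhl13 (0.0909), and those of Vdr were Smad1 (0.0378), Cdh11 (0.0471) and Calcoco1 (0.0515). Esr1 was nearest to Hspb6, Ncaph and Boc (0.0520 to 0.0633), Thra to Smo, Mis18a and Mettl7a1 (0.0364 to 0.0448), Insr to Wdfy2, Xrcc5 and Slc17a5 (0.0153 to 0.0386) and Nr3c1 to Hps3, Utp6 and Atg5 (0.0219 to 0.0291). No profile came so close to the thinly counted genes: Hsd11b1 was nearest to Bmp4, Gnai1 and Adarb1 (0.335 to 0.359) and Gper1 to Fxyd2, Smoc1 and Piezo2 (0.258 to 0.489). The measure uses the same 6 libraries as the fold changes, so genes with a like fold are near by construction.

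The partners of each receptor were read from lists of pathway genes. Downstream of Pth1r, 33 genes of receptor signalling were tested, of which 1 fell and 1 rose in CKO, against the 4.51% and 2.88% of all genes, with a list median log2 fold change of -0.18. The gene that rose was Adcy7, an adenylyl cyclase, from 173.9 ± 11.4 to 260.0 ± 6.83 CPM (log2 fold change 0.58, SE 0.09, adjusted p = 0.00544). The gene that fell was Ramp2, a receptor activity-modifying protein, at 0.759 CPM in WT and 0.112 CPM in CKO, named after its values were seen. Gnas, which encodes the Gs alpha subunit, was not called (log2 fold change 0.20, adjusted p = 0.588). Among 17 tested genes that respond to parathyroid hormone in osteoblasts, a list that holds induced genes and the repressed gene Tnfrsf11b, 0 fell by edgeR (2 at an unadjusted p under 0.05, 1 by DESeq2 and 0 by limma-voom) and 5 rose, with a median of 0.30. The chemokine Ccl2 rose from 12.1 ± 1.43 to 56.5 ± 1.64 CPM (log2 fold change 2.22, adjusted p = 5.23e-05) and the cyclooxygenase Ptgs2 from 4.78 ± 1.38 to 21.4 ± 4.12 CPM (2.15, adjusted p = 0.00124). The AP-1 subunit Junb (0.75, adjusted p = 0.00916) and the ephrin ligand Efnb2 (0.63, adjusted p = 0.0151) rose less, and Fos was the other gene called. These genes also respond to inflammatory and growth signals. Tnfsf11 (RANKL) had 7.91 CPM in WT and 4.26 CPM in CKO (log2 fold change -0.89, adjusted p = 0.0673).

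For Vdr, 15 genes of vitamin D metabolism and of receptor partners were tested, of which 1 fell and 0 rose (2 at an unadjusted p under 0.05, 0 by DESeq2 and by limma-voom), with a median of -0.14. The gene that fell was Cyp27a1, a mitochondrial sterol and vitamin D hydroxylase, from 14.1 ± 0.770 to 9.18 ± 0.223 CPM (log2 fold change -0.62, SE 0.12, adjusted p = 0.0173). Its call was lost in 6 of the 13 alternatives, with the replicate block and without any library other than WT replicate 3 (adjusted p up to 0.104). The heterodimer partner Rxra was at 235 CPM in WT and 246 CPM in CKO (0.06, adjusted p = 0.778). Of 7 vitamin D target genes tested, 1 rose and 0 fell (2 at an unadjusted p under 0.05, 1 by DESeq2 and 0 by limma-voom), with a median of -0.11. It was Ank, a transporter that raises extracellular pyrophosphate, from 104 ± 9.95 to 161 ± 13.7 CPM (0.64, adjusted p = 0.00889). Cyp24a1, the hydroxylase that active vitamin D induces most directly, had 3, 0 and 0 reads in WT and 0, 2 and 2 in CKO and was not tested.

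Of 18 tested genes of oestrogen metabolism, co-factors and targets, 1 fell and 1 rose, with a median of -0.07. Igfbp4, which binds and restrains insulin-like growth factors, fell from 1385 ± 214 to 391 ± 24.4 CPM (log2 fold change -1.83, adjusted p = 0.000154), and cyclin D1 (Ccnd1) rose from 380 ± 25.7 to 620 ± 26.4 CPM (0.71, adjusted p = 0.00248). Both genes respond to many signals beside oestrogen.

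In growth hormone receptor signalling 3 of 17 tested genes fell and 1 rose, with a median of -0.10. Igfbp3, a carrier of insulin-like growth factors, fell from 15.7 ± 3.42 to 9.62 ± 0.286 CPM (-0.70, adjusted p = 0.0438), and Irs1, an adaptor of insulin and growth factor receptors, from 76.4 ± 3.53 to 57.3 ± 1.79 CPM (-0.42, adjusted p = 0.0250). Each of these calls was lost in 6 of the 13 alternatives, the replicate block among them (adjusted p up to 0.173 and 0.161). Igfals was the other gene that fell, at under 1 CPM in both genotypes. The gene that rose was Socs2, a feedback inhibitor of the receptor, from 7.08 ± 0.253 to 13.3 ± 1.02 CPM (0.90, adjusted p = 0.00422). Igf1 itself stood at 438 ± 99.2 and 401 ± 12.5 CPM and was not called (-0.13, adjusted p = 0.685), and neither were Jak2 (0.08) and Stat5b (-0.10).

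Around Thra, 16 genes of thyroid hormone transport, metabolism and response were tested, of which 1 fell and 0 rose (1 at an unadjusted p under 0.05, 1 by DESeq2 and 0 by limma-voom), with a median of -0.23. Thrb, the other receptor gene, was at 5.35 ± 0.275 CPM in WT and 8.34 ± 1.57 CPM in CKO, higher in every CKO library, with an adjusted p of 0.0645.

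Downstream of Insr, 5 of 39 tested genes fell (12.8%) and 0 rose (6 at an unadjusted p under 0.05, 2 by DESeq2 and 0 by limma-voom), with a median of -0.03. Beside Irs1, they included the adaptor Grb10 (from 250.9 ± 24.9 to 164 ± 6.46 CPM, -0.62, adjusted p = 0.00725) and the regulatory subunit Pik3r1 (from 365 ± 50.0 to 237 ± 17.0 CPM, -0.63, adjusted p = 0.0149). Slc2a4, the insulin-responsive glucose transporter, fell as well and was at 1.51 CPM in WT and 0.159 CPM in CKO. Igf1r, the receptor most like Insr, was not called (-0.03, adjusted p = 0.901).

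For the glucocorticoid axis, 14 genes of ligand metabolism and receptor chaperones were tested and 0 were called in either direction by edgeR or limma-voom (2 lower and 2 higher at an unadjusted p under 0.05, 1 lower and 1 higher by DESeq2), with a median of -0.02. H6pd, which supplies Hsd11b1 with its cofactor, was at 192 ± 16.8 CPM in WT and 149 ± 5.63 CPM in CKO (-0.37, adjusted p = 0.0551). Of 23 glucocorticoid-responsive genes tested, 6 fell (26.1%) and 2 rose (8.70%), with a median of -0.13. Angptl4, a lipoprotein lipase inhibitor (-1.11, adjusted p = 0.00712), and the cell-cycle inhibitor Cdkn1c (-0.97, adjusted p = 0.0154) fell, whereas the kinase Sgk1 (0.66, adjusted p = 0.00268) and the metallothionein Mt1 (0.86, adjusted p = 0.0104) rose. Fkbp5 and Tsc22d3, which respond to the receptor in most cell types, were not called: Fkbp5 was at 526 ± 110 and 604 ± 53.5 CPM (0.20, adjusted p = 0.524) and Tsc22d3 at 377 ± 74.3 and 364 ± 8.35 CPM (-0.05, adjusted p = 0.875).

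Other receptors of circulating hormones were counted for comparison: 22 of 36 were tested, of which 5 fell (22.7%) and 0 rose (2 at an unadjusted p under 0.05, 1 by DESeq2 and 0 by limma-voom), with a median of -0.17. The leptin receptor Lepr, a marker of marrow reticular stroma, fell from 80.1 ± 18.9 to 12.2 ± 0.737 CPM (log2 fold change -2.72, adjusted p = 0.000131). Npr3, the clearance receptor for natriuretic peptides, fell from 94.6 ± 7.06 to 29.3 ± 3.29 CPM (-1.69, adjusted p = 0.000154), and the vasopressin receptor Avpr1a from 2.08 ± 0.211 to 0.495 ± 0.132 CPM (-2.06, adjusted p = 0.00410). Ramp2, described above, was also among the genes called.

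The library that stood apart moved these counts. When WT replicate 3 was left out, 1447 of the 13905 genes tested were called lower and 1544 higher, against 620 and 396 with all libraries. The list counts below rose together with those of all genes, so a higher count is not by itself a result about a list. Parathyroid hormone receptor signalling then had 7 genes lower and 1 higher, and the parathyroid hormone-responsive list 2 lower and 7 higher. Both vitamin D lists had 2 lower and 3 higher, oestrogen 2 and 2, growth hormone 4 and 1, and thyroid hormone 4 and 1. Insulin receptor signalling had 9 lower and 7 higher, glucocorticoid metabolism 1 and 1, the glucocorticoid-responsive list 10 and 3, and the other hormone receptors 6 and 2.

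**Figure D4:**
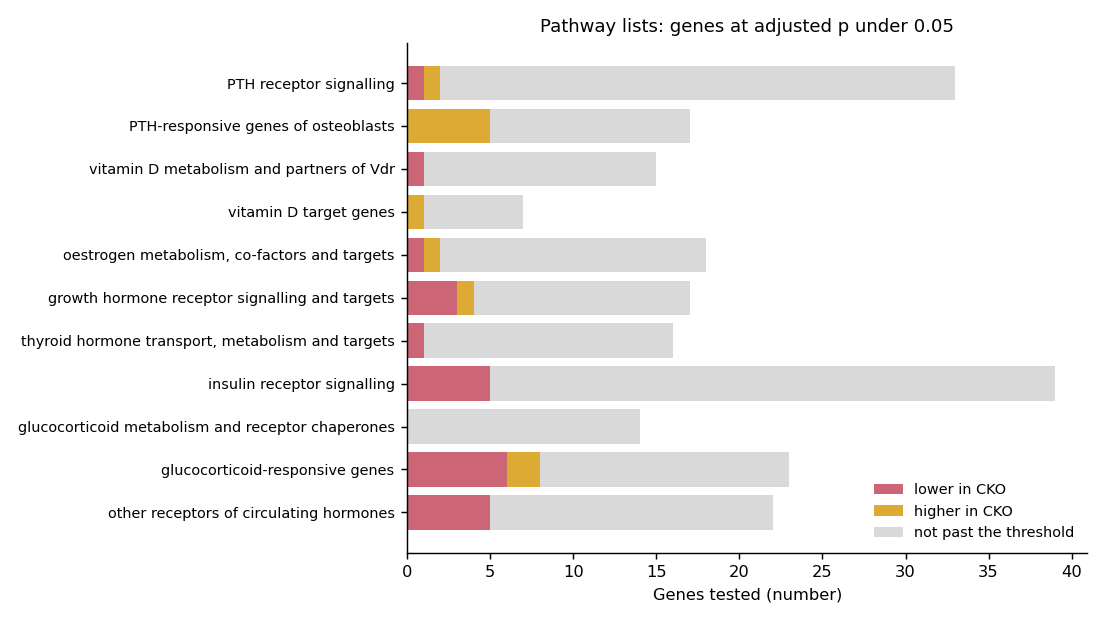
Number of genes tested in each list of pathway genes (horizontal axis, bar length), split into genes lower in CKO, higher in CKO and not past an adjusted p of 0.05. The parathyroid hormone-responsive list has 5 genes higher and 0 lower, and the list of other hormone receptors 5 lower and 0 higher.

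Some markers of the cell types in the culture differed between genotypes beside the receptors, in both directions, and others did not. Of 8 marrow stroma markers tested, 4 fell (Cxcl12, Lepr, Vcam1 and Pdgfra) and 2 rose (Ly6a and Thy1), and their summed level was 3774 to 4288 CPM in WT and 1447 to 1587 CPM in CKO. Without Cxcl12 the sum was 878 to 953 and 949 to 981 CPM. Of 7 osteoblast lineage markers tested, 3 fell (Sp7, Alpl and Ibsp) and Col1a1 rose. Their sum was 4172 to 5041 CPM in WT and 6102 to 6660 CPM in CKO, and without Col1a1 it was 550 to 687 and 257 to 301 CPM. Bglap, the osteocalcin gene, was near 0 in both genotypes (0.121 and 0.146 CPM). Of 6 adipocyte markers tested, 4 fell (Adipoq, Plin1, Cidec and Pparg), with Adipoq at 47.0 CPM in WT and 0.824 CPM in CKO and Plin1 at 0 CPM in CKO, whereas Fabp4 was higher in every CKO library, at 71.9 and 98.6 CPM, without passing the test (adjusted p = 0.0545). The adipocyte sum was 342 to 485 and 333 to 364 CPM, and without Cebpa 151 to 158 and 96.9 to 117 CPM. None of the 8 macrophage markers was called by edgeR, and their sum was 26960 to 29420 CPM in WT and 26540 to 30560 CPM in CKO, or 4082 to 4468 and 4130 to 4558 CPM without Lyz2. Endothelial markers (0 of 8 called) summed to 32.9 to 45.7 and 30.7 to 37.5 CPM (22.4 to 29.6 and 22.3 to 29.3 CPM without Cdh5), smooth muscle markers (2 of 8 lower) to 533 to 700 and 567 to 597 CPM (80.8 to 89.2 and 59.9 to 67.5 CPM without Acta2), chondrocyte markers (2 of 4 lower) to 41.7 to 54.0 and 33.9 to 40.7 CPM (19.0 to 26.2 and 24.5 to 29.6 CPM without Comp), and neutrophil markers (1 of 2 higher) to 1.00 to 1.14 and 1.30 to 1.98 CPM (0.481 to 0.845 and 0.192 to 0.585 CPM without S100a8). The part of these cell types in the levels of the 9 genes was not tested.

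**Figure D5:**
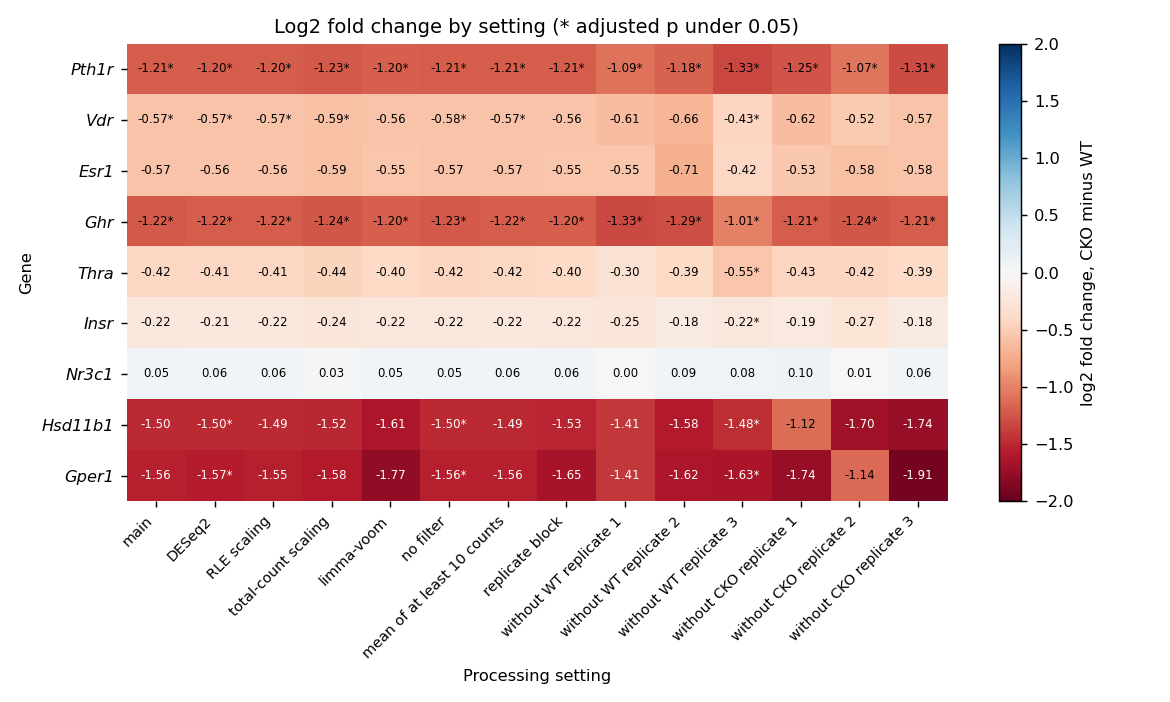
Log2 fold change of each gene (rows, colour and printed value, CKO minus WT) in the test of all 6 libraries and under 13 alternatives (columns), with a star at an adjusted p under 0.05. Pth1r and Ghr carry a star in every column, Esr1 and Nr3c1 in none, and the other genes in some.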

How the data were processed

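Poly(A) RNA of MSC cultures, in 3 WT and 3 CKO libraries, was sequenced after osteogenic induction. The deposited values are raw read counts per gene: the authors mapped reads to mm10 with HISAT2, and the submitters' processing notes also name FastQC and DESeq2. What counted the reads, on which annotation and whether by strand, is not given in the sources used here. Of 20163 rows, 92 repeated an Ensembl ID with identical counts, which left 20071 genes. GENCODE release M21 (GRCm38) gave positions, exonic lengths and overlaps for 20059 of them. Start sites came from RefSeq.

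Genotypes were compared with the quasi-likelihood test of edgeR 4.0.16 in R 4.3.3 after TMM scaling and filterByExpr, without covariates, over 13733 genes, and p-values were adjusted by the Benjamini-Hochberg method over all of them. A gene was called at an adjusted p under 0.05. Total counts per library ranged from 20258209 to 28227696, and SEs and intervals cover only the spread between libraries. Groups were taken from the labels. Alternatives were DESeq2 1.42.0, RLE or total-count scaling, limma-voom (limma 3.58.1), no filter, a minimum mean of 10 counts, a replicate block, a log2 fold threshold of 1, and leaving out each library in turn. For nearest profiles 0.1 CPM was added before the log2. The fits were tested on simulated data.

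The 9 genes and all lists were chosen with earlier results of these data known. The text names all 9 genes and, from each list, the called genes with a mean of at least 1 CPM, at most the 4 with the smallest p (8 for other hormone receptors), the 3 nearest profiles of each gene, and checks of the labels. Genes named outside this rule, Ramp2, Fos, Igfals, Slc2a4, markers and list genes that were not called, were chosen after their values were seen or for their role. Some genes that the rule names are counted in their lists and not reported here.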

Additional observations from a re-analysis of the deposited data

How the results depend on the processing

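Pth1r and Ghr were called in all 13 alternatives, with log2 fold changes of -1.33 to -1.07 and -1.33 to -1.01 over the fits that left out 1 library, and no member changed direction in any alternative. Vdr lost its call with limma-voom (-0.56) and with the replicate block (-0.56, adjusted p = 0.0673), and leaving out 1 library gave -0.66 to -0.43. Hsd11b1 and Gper1 gained a call with DESeq2 (-1.50 and -1.57) and with no filter (-1.50 and -1.56), and without 1 library gave -1.74 to -1.12 and -1.91 to -1.14. The same range was -0.55 to -0.30 for Thra, -0.27 to -0.18 for Insr, -0.71 to -0.42 for Esr1 and 0.0048 to 0.0998 for Nr3c1. The number of members called lower was 3, beside 620 of the 13733 genes tested. It was 5 with DESeq2 (beside 830 of 20071 genes) or no filter (beside 712 of 20071). Without 1 library it was 2 to 7 (7 without WT replicate 3, 2 without any other). Without WT replicate 3 the genes called, of 13905 tested, were 1447 lower and 1544 higher, so the background of those 7 members rose too. The ranges over the libraries left out were 324 to 1447 lower and 148 to 1544 higher. The causes were not tested. Of the list genes named above, Fos and Igfals lost their call without 4 of the 6 libraries, Efnb2 and Cdkn1c without 3, Ramp2, Junb and Pik3r1 without CKO replicate 1 or 3, Ank and Grb10 without CKO replicate 3 and Mt1 without CKO replicate 2. Other scalings moved the median of all genes by at most 0.0225 on the log2 scale.

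The replicate numbers did not pair the libraries (correlations of deviations 0.0554, -0.045 and -0.013), and replicate 1 alone correlated best with its own number. With the replicate block 503 genes were lower and 267 higher, and among the lists the called genes were 0 for vitamin D metabolism (from 1), 2 for vitamin D targets (from 1) and 2 for growth hormone signalling (from 4).

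At a log2 fold change of at least 1, 343 genes were lower and 142 higher, and the lists held 1 (parathyroid hormone receptor signalling, oestrogen, growth hormone, thyroid hormone), 2 (parathyroid hormone-responsive, insulin, glucocorticoid-responsive), 4 (other receptors) or 0 genes (both vitamin D lists, glucocorticoid metabolism). DESeq2 called 4 genes of parathyroid hormone receptor signalling (as did total-count scaling), 2 vitamin D targets (as with no filter), 5 of oestrogen (4 with no filter), 2 of thyroid hormone, 8 of insulin and 2 of glucocorticoid metabolism. Without 1 library the lists held 1 to 8 (parathyroid hormone receptor signalling), 2 to 9 (parathyroid hormone-responsive), 0 to 5 (each vitamin D list), 2 to 4 (oestrogen), 1 to 5 (growth hormone, thyroid hormone), 1 to 16 (insulin), 0 to 2 (glucocorticoid metabolism), 4 to 13 (glucocorticoid-responsive) and 3 to 8 called genes (other receptors). Hsd11b1 and Gper1 had 5 to 68 reads a library, and their CKO libraries varied most among the members (coefficients of variation 49.4% and 61.4%).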
